A study of Rattus norvegicus with 5 samples.

Results

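Oxidative phosphorylation genes were examined in laser-captured neurons of the rat striatum. A gene was a member if its symbol in the authors' deposited comparison began with Mt-, Nduf, Sdha, Sdhb, Sdhc, Sdhd, Uqcr or Atp5, or with Cox and a digit. The rule found 97 Ensembl genes among the 12039 with a symbol in that comparison, of which 13 are encoded by the mitochondrial genome and 84 by the nucleus. The nuclear members comprised 64 subunits and 20 assembly or accessory factors. Uqcr10 and Cox6b1 each stood for 2 genes, so the members carried 95 different symbols. All 97 members passed the filter on low counts, and the lowest count of any member in any library was 7. Members came only from that comparison, which is smaller than the 32285 genes of the count files. Their passing therefore does not show that every subunit was detected. Subunit genes outside the comparison were not searched, so sums by complex may be incomplete.

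The 5 libraries came from neurons labelled with fluorescent tracers that travel back along axons from the target. Striatomesencephalic neurons, which project to the midbrain, gave 2 libraries. Striatopallidal neurons, which project to the pallidum, gave 3 libraries. No genotype or drug treatment is named in the labels, and the strain and age of the rats, the number of cells and animals behind a library, and whether libraries came from separate animals are not given in these sources. P-values therefore measure the spread between these libraries, which may be technical.

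Oxidative phosphorylation makes most of a neuron's ATP. Complexes I and II pass electrons from NADH and succinate to ubiquinone, complex III passes them to cytochrome c, and complex IV passes them to oxygen. Complexes I, III and IV pump protons across the inner mitochondrial membrane, and complex V, the ATP synthase, uses their return to make ATP. Complex II is wholly nuclear, while the other complexes combine subunits of both genomes, so their assembly joins 2 sets of transcripts made in different compartments. The mitochondrial messenger RNAs are cut from long shared precursors.

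Library totals ran from 20845178 to 24805062 counts, at which 3 counts correspond to 0.121 to 0.144 CPM (counts scaled to a fixed library total). All 18 markers of spiny projection neurons were detected, with summed levels of 19551 and 25207 CPM in striatomesencephalic neurons, against 28968, 24661 and 28725 CPM in striatopallidal neurons. Of these markers, 4 were higher and 5 lower in both striatomesencephalic libraries than in any striatopallidal library. Drd1 and Drd2, which define the types, followed the labels without overlap, though each was also counted in the other type. Drd1 stood at 861 and 1084 CPM in striatomesencephalic neurons, against 582, 311 and 415 CPM in striatopallidal neurons. Drd2 stood at 144 and 110.0 CPM in striatomesencephalic neurons, against 606, 391 and 524 CPM in striatopallidal neurons. Markers of other cells were counted as well. The 12 oligodendrocyte markers tested summed to 6242 and 7655 CPM in striatomesencephalic neurons, against 7546, 7224 and 5623 CPM in striatopallidal neurons. The 12 astrocyte markers summed to 1718 and 1374 CPM in striatomesencephalic neurons, against 1929, 1439 and 1530 CPM in striatopallidal neurons. Sums over 6 microglial, 6 vascular and 5 interneuron markers stood between 60.8 and 243 CPM in every library. Each of these sums overlapped between the groups. Single markers did not all overlap, as was so for 21.1% of all genes tested. Of the 5 interneuron markers, 2 were higher and 2 lower in both striatomesencephalic libraries than in any striatopallidal library. Lower in this way were also 2 oligodendrocyte, 1 microglial and 1 vascular marker, with 0 higher. Of the 12 astrocyte markers, Aldh1l1 and Slc1a2 were higher and Gfap and Aqp4 lower in both striatomesencephalic libraries than in any striatopallidal library, named after their values were seen. Gfap stood furthest apart, at 11.5 and 3.85 CPM in striatomesencephalic neurons, against 243, 175 and 87.7 CPM in striatopallidal neurons. In striatopallidal replicate 2 a single gene, Frmd6, took 2.89% of the counts, against 0.0357% to 0.0524% in the other libraries. In captured samples like these, fewer cells of a type and less RNA per cell cannot be told apart.

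The promoters of the nuclear members were read for the motifs of a pair of factors known to act at respiratory genes. These are nuclear respiratory factor 1 (NRF1), searched as GCGCA and GCGC with any 1 base between them, and GA-binding protein (GABP, also called nuclear respiratory factor 2), searched as CCGGAAG, each on both strands. RefSeq promoters of rat build GRCr8, running from 250 bases before to 50 bases after the gene's start, were matched by symbol or older symbol for 74 of the 82 nuclear symbols. The NRF1 motif was found in 16 of them (21.6%) and in 4.25% of all 33469 promoters in the table, which also hold those of noncoding genes. The GABP motif was found in 23 (31.1%) and in 8.75% of all promoters. Both were found in 2, neither in 37, and no matches of the 2 motifs overlapped in any member. A match describes letters and not binding, and whether a neighbouring gene shares a promoter was not examined.

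The promoters of 4 members are shown 5′ to 3′, with the motif matches in capitals (CTTCCGG is the GABP motif on the other strand). They were chosen for their level or for holding both motifs. Cox4i1, the complex IV subunit with the highest mean CPM of the nuclear members, had 2 GABP matches at offsets 3 and 23 from the first base of the gene (chr19:65630133-65630432, plus strand). Atp5c1, the gamma subunit of the ATP synthase rotor and the member with the highest mean CPM among those with an NRF1 match, had it at offset -8 (chr17:73333435-73333734, plus strand). Atp5i, the small e subunit of the synthase, and Sdhaf3, a complex II assembly factor, held both motifs (chr14:1464610-1464909 and chr4:36066713-36067012, both plus strand).
Cox4i1: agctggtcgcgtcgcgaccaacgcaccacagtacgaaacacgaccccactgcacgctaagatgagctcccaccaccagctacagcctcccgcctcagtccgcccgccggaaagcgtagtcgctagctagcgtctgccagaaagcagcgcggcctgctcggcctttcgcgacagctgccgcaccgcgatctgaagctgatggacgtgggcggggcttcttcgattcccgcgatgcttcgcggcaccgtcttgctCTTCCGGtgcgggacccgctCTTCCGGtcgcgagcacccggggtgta
Atp5c1: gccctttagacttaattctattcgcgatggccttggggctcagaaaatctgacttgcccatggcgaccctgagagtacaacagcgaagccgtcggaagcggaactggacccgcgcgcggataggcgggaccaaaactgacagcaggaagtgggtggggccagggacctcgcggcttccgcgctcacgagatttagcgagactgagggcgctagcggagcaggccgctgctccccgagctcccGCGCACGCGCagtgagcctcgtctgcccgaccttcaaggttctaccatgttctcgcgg
Atp5i: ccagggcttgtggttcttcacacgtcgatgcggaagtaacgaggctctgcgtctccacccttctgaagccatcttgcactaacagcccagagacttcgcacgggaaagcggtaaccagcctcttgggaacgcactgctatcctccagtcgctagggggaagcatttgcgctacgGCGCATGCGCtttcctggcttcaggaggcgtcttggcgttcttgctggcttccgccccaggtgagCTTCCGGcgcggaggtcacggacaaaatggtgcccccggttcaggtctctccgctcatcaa
Sdhaf3: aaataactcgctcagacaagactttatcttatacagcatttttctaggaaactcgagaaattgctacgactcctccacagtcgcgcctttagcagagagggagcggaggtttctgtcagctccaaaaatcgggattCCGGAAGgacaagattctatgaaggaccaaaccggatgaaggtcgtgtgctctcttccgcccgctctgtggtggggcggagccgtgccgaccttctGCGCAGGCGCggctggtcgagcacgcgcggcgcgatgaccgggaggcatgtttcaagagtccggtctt

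The study asked how the 2 types of striatal projection neuron differ. Among the members no gene passed the test between the types. Of 97 members, 0 had an adjusted p under 0.05 (quasi-likelihood test of edgeR), and of all 13811 genes tested 0% did. The smallest adjusted p of a member was 0.779. The absence of calls does not show that levels were alike, since the genes that define the types did not pass this test either. Penk, Drd2 and Drd1 had log2 fold changes of -2.69, -2.05 and 1.12 with an edgeR adjusted p of 0.779 each, while DESeq2 gave Penk and Drd2 adjusted p-values of 0.000204 and 0.00532 and Drd1 one of 0.348. At an unadjusted p under 0.05 there were 0 members, against 6.07% of all genes tested. DESeq2 called 0 members, against 1.75% of the 12919 genes to which it gave an adjusted p, and limma voom called 0 members and 0% of all genes. Unadjusted, DESeq2 placed 2 members under 0.05, Atp5s and Ndufaf6, and limma voom placed 1, Mt-co2, against 10.8% and 4.66% of all genes tested. The authors' deposited table gives no member an adjusted p below 0.927, and 0 members a p under 0.05, against 4.53% of its genes.

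Counted over all members, the CPM of the groups did not overlap for 19 of 97, or 19.6%, where the share over all genes tested was 21.1%. In striatomesencephalic libraries 15 were lower (15.5% of members), against 9.91% of all genes, and 4 were higher (4.12%), against 11.2% of all genes. The 4 higher were Ndufa13, Uqcrb, Atp5s and Cox19, the last named for this count after its values were seen. The lower ones included 5 of the 13 mitochondrially encoded members. With TMM-scaled CPM the count was 24 members (24.7%), against 21.6% of all genes.

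The mitochondrially encoded members had negative fitted log2 fold changes (striatomesencephalic minus striatopallidal) in 13 of 13 cases, although Mt-co1 was positive with libraries scaled by their totals only, and their median was -0.55. The nuclear members were spread around 0, with 37 above and 47 below it and a median of -0.09. Over all genes tested the median was -0.06, with 6550 higher and 7261 lower. The 13 mitochondrial transcripts share precursors and libraries, so they are not separate observations, and the difference between both sets of members was given no test. In plain CPM, their median log2 distance from each gene's mean log2 level was -0.36 and -0.18 in striatomesencephalic libraries. In striatopallidal libraries it was 0.73, -0.24 and 0.27, so striatopallidal replicate 2 lay between both striatomesencephalic libraries. Markers of microglia, oligodendrocytes, vascular cells and interneurons also had negative median log2 fold changes. Of 6 microglial markers, 0 were above and 6 below 0, with a median log2 fold change of -0.88, and of 12 oligodendrocyte markers, 3 were above and 9 below, with a median of -0.58. The 6 vascular markers had a median of -0.28, with 2 above and 4 below, and the 5 interneuron markers -0.45, with 2 above and 3 below. For the 12 astrocyte markers the median was 0.01, with 6 above and 6 below. The part of RNA from these cells in the values of the members was not tested. In the authors' deposited table, whose fold change runs the other way (striatopallidal over striatomesencephalic), 11 of the 13 had a positive value, with a median of 0.44, against -0.05 for the nuclear members and -0.15 for all its genes.

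**Figure D1:**
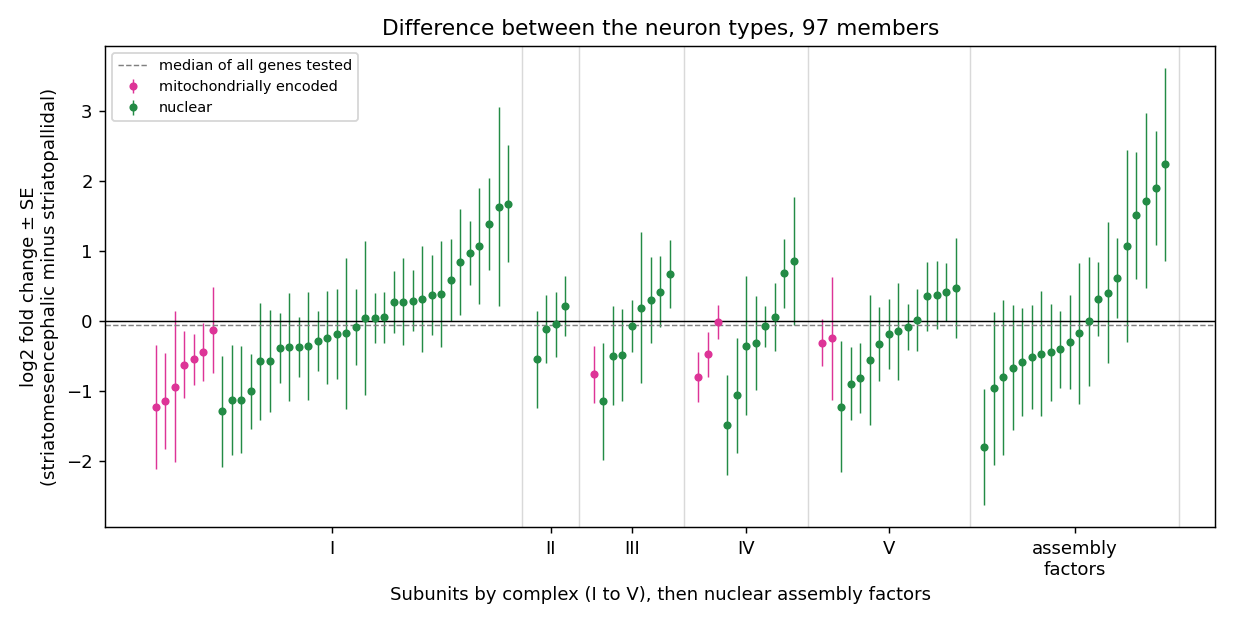
Log2 fold change of each of the 97 members (striatomesencephalic minus striatopallidal, edgeR) with its standard error, ordered within each complex, mitochondrially encoded members left of nuclear ones. The 13 mitochondrially encoded values lie between -1.24 and -0.02, while the nuclear values lie on both sides of 0, between -1.81 and 2.24, and the dashed line marks the median of all genes tested at -0.06.

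The 7 complex I subunits encoded in mitochondria form part of the membrane arm of the enzyme. Among them, Mt-nd2 stood at 233 and 197 CPM in striatomesencephalic neurons, against 413, 235 and 263 CPM in striatopallidal neurons. Mt-nd3 stood at 12.9 and 17.3 CPM in striatomesencephalic neurons, against 51.2, 19.4 and 28.8 CPM in striatopallidal neurons. Both genes had separate groups, narrowly so for Mt-nd2, where striatomesencephalic replicate 1 lay just under striatopallidal replicate 2. Mt-nd6, the single messenger of the light strand in mammals, stood at 3.79 and 3.98 CPM in striatomesencephalic neurons, against 10.4, 5.40 and 11.2 CPM in striatopallidal neurons. Its groups did not overlap either, and its log2 fold change of -1.24 ± 0.89 (SE) was the most negative of the 13 (edgeR unadjusted p = 0.206, adjusted p = 0.825).

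The other complex I messengers overlapped between the groups. Mt-nd1 stood at 63.4 and 76.3 CPM in striatomesencephalic neurons, against 154, 61.3 and 106 CPM in striatopallidal neurons. Mt-nd4 stood at 153 and 200.4 CPM in striatomesencephalic neurons, against 341, 133 and 245 CPM in striatopallidal neurons. In both, striatopallidal replicate 2 was the lowest of all libraries and striatopallidal replicate 1 the highest. Mt-nd5 stood at 71.3 and 91.9 CPM in striatomesencephalic neurons, against 138, 28.1 and 109 CPM in striatopallidal neurons. Its log2 fold change of -0.13 ± 0.62 (SE) was 0.06 without striatomesencephalic replicate 1, 0.18 without striatopallidal replicate 1 and close to 0 without striatopallidal replicate 3. Mt-nd4l had 46 and 41 counts in striatomesencephalic neurons, against 148, 35 and 94 counts in striatopallidal neurons, and its reading frame overlaps that of Mt-nd4 in mammals.

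Mt-cytb, the cytochrome b of complex III, stood at 317 and 400.4 CPM in striatomesencephalic neurons, against 632, 630.4 and 432 CPM in striatopallidal neurons. The groups did not overlap, with a log2 fold change of -0.76 ± 0.40 (SE) and an edgeR adjusted p of 0.780. Striatopallidal replicate 2 stood apart in the balance of these messengers. It had 22.4 times as many Mt-cytb as Mt-nd5 counts, against 4.45 and 4.36 times in striatomesencephalic libraries and 4.58 and 3.96 times in striatopallidal replicates 1 and 3.

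The catalytic core of complex IV is encoded by Mt-co1, Mt-co2 and Mt-cox3. Mt-co1 stood at 3521 and 4486 CPM in striatomesencephalic neurons, against 4317, 3531 and 3663 CPM in striatopallidal neurons. The groups overlapped widely, and the log2 fold change of -0.02 ± 0.25 (SE) was 0.06 with libraries scaled by their totals only, 0.17 with striatomesencephalic replicate 1 left out and 0.09 with striatopallidal replicate 2 left out. Mt-co2, which receives electrons from cytochrome c, stood at 233 and 328 CPM in striatomesencephalic neurons, against 622, 347 and 453 CPM in striatopallidal neurons. These groups did not overlap. Its log2 fold change was -0.80 ± 0.36 (SE), with the smallest p of the mitochondrially encoded members (edgeR unadjusted p = 0.0591, adjusted p = 0.779), and it ran from -1.08 to -0.55 when any 1 library was left out. Mt-cox3 stood at 324 and 383 CPM in striatomesencephalic neurons, against 604, 368 and 453 CPM in striatopallidal neurons, which overlapped.

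For complex V, Mt-atp6, the proton channel subunit, stood at 325 and 416 CPM in striatomesencephalic neurons, against 600.3, 301 and 448 CPM in striatopallidal neurons. Mt-atp8 stood at 4.65 and 5.97 CPM in striatomesencephalic neurons, against 7.51, 4.43 and 6.47 CPM in striatopallidal neurons. Both overlapped between the groups, and the reading frames of these genes overlap each other in mammals. How reads from such overlaps or from antisense neighbours were assigned is not stated, so the levels of Mt-nd4l, Mt-nd5, Mt-nd6 and Mt-atp8 are uncertain. The handling of reads from nuclear copies of mitochondrial DNA is not stated either, which leaves the level of every mitochondrially encoded member uncertain.

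**Figure D2:**
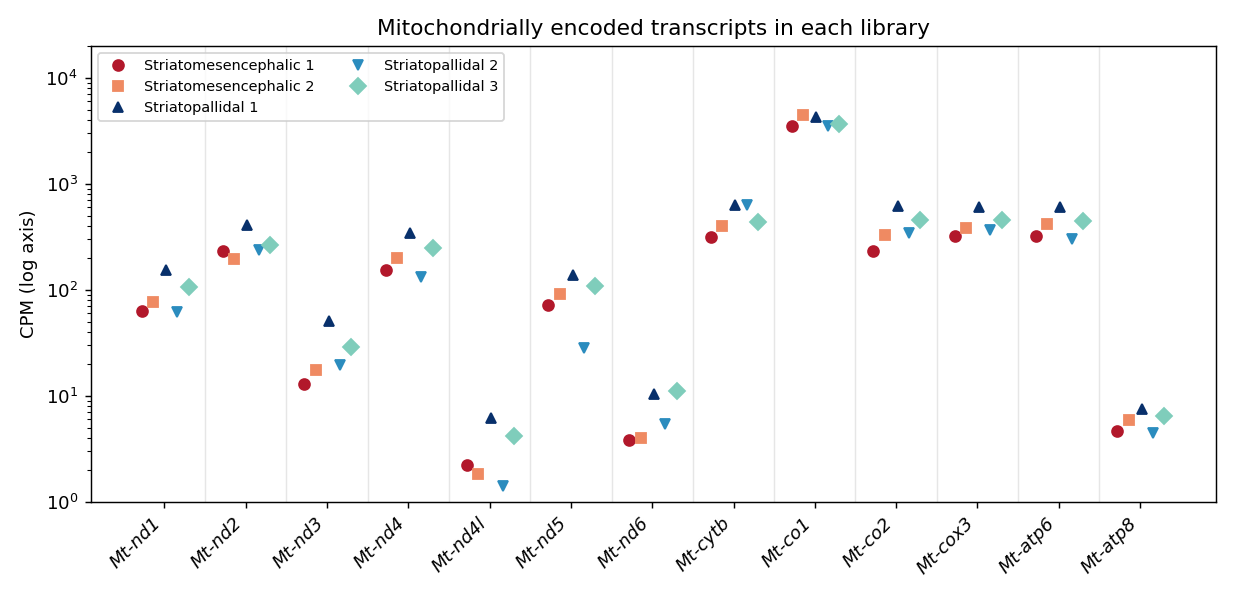
CPM (log axis) of each mitochondrially encoded member in each of the 5 libraries, striatomesencephalic libraries left of striatopallidal ones. Striatopallidal replicate 1 is the highest library for 11 of the 13 genes, and striatomesencephalic replicate 1 and striatopallidal replicate 2 are each the lowest for 6.

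Summed over the 13 members, mitochondrially encoded transcripts took 0.527% and 0.661% of the counts in striatomesencephalic neurons, against 0.790%, 0.567% and 0.622% in striatopallidal neurons. As summed CPM this was 5937 ± 950 (SD, n = 2) in striatomesencephalic neurons, against 6595 ± 1161 (SD, n = 3) in striatopallidal neurons, a difference smaller than the spread between libraries. Mt-co1 alone accounted for 66.9% and 67.9% of these counts in striatomesencephalic neurons, against 54.7%, 62.3% and 58.9% in striatopallidal neurons. This share does not depend on how libraries are scaled, and it did not overlap between the groups. Shares of counts are not corrected for gene length, and reads from nuclear copies of mitochondrial DNA may enter them. The share of Mt-co1 was examined after the values had been seen and is given without a test.

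Without Mt-co1 the other 12 members summed to 1744 and 2122 CPM in striatomesencephalic neurons, against 3579, 2135 and 2560 CPM in striatopallidal neurons. The groups were thus apart by a margin of 2122 against 2135 CPM, while the same sums scaled by TMM (edgeR's trimmed mean of M-values) were 1669.7 and 2085 in striatomesencephalic neurons, against 3147, 2761 and 2407 in striatopallidal neurons. The sum over the 84 nuclear members was 7018 ± 286 CPM (SD, n = 2) in striatomesencephalic neurons, against 7001 ± 913 CPM (SD, n = 3) in striatopallidal neurons. The ratio of mitochondrially encoded to nuclear counts was 0.772 and 0.915 in striatomesencephalic neurons, against 0.993, 0.923 and 0.90 in striatopallidal neurons, which overlapped. Leaving out striatomesencephalic replicate 1 reduced the difference of the mean ratios, striatomesencephalic minus striatopallidal, to -0.02 from the -0.09 of all libraries.

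**Figure D3:**
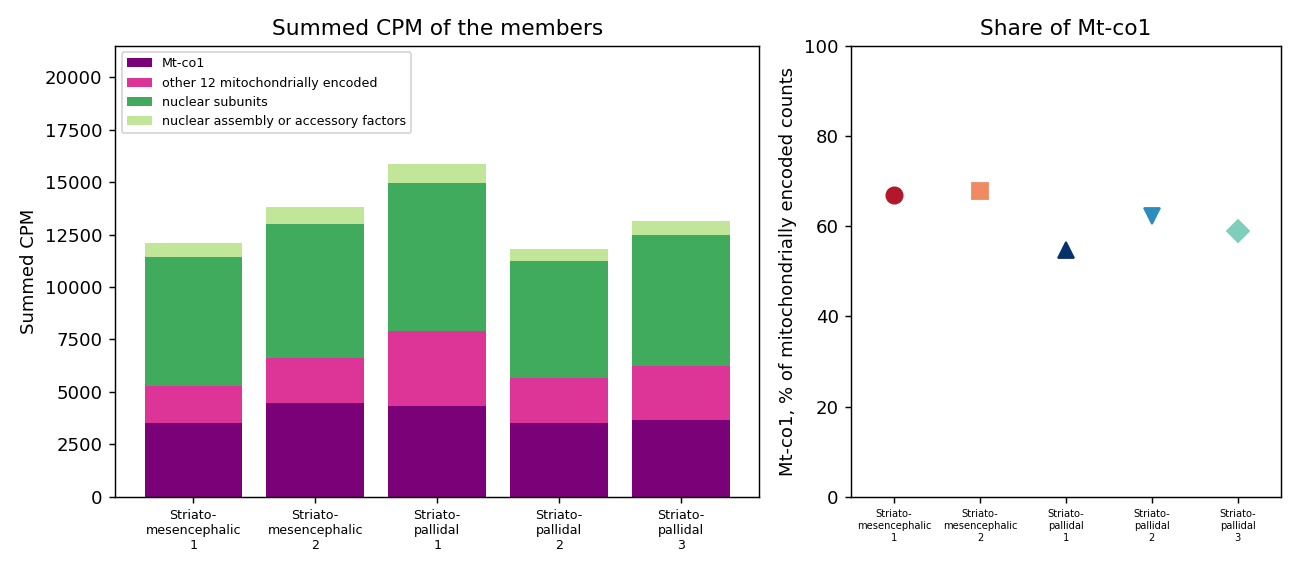
Left, summed CPM of the members in each library, stacked as Mt-co1, the other 12 mitochondrially encoded members, nuclear subunits and nuclear assembly or accessory factors. Right, Mt-co1 as a percentage of the mitochondrially encoded counts, which is 66.9% and 67.9% in the striatomesencephalic libraries and lies between 54.7% and 62.3% in the striatopallidal libraries.

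By complex, both genomes could be set side by side. Complexes were assigned by symbol, so Ndufa4, now regarded as a complex IV subunit, was counted with complex I. The 31 nuclear subunits of complex I summed to 2572 ± 24.7 CPM (SD, n = 2) in striatomesencephalic neurons, against 2466 ± 295 CPM (SD, n = 3) in striatopallidal neurons. Their median log2 fold change was 0.04, with 16 higher and 15 lower. The 7 mitochondrial subunits of the same complex had a median of -0.63. They summed to 540.1 and 588 CPM in striatomesencephalic neurons, against 1113, 484 and 768 CPM in striatopallidal neurons. Striatopallidal replicate 2 thus lay below both striatomesencephalic libraries. Scaled by TMM, which the fit also used, the sums were 517 and 578 in striatomesencephalic neurons, against 979, 625 and 722 in striatopallidal neurons. With that scaling the groups did not overlap. Medians for nuclear subunits were -0.08 for the 4 of complex II, 0.06 for the 8 of complex III, -0.20 for the 8 of complex IV and -0.15 for the 13 of complex V.

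Ndufa13 (also known as GRIM-19), a subunit of complex I, was higher in both striatomesencephalic libraries than in any striatopallidal library, although it did not pass the test. It stood at 96.6 and 103 CPM in striatomesencephalic neurons, against 60.3, 39.1 and 47.8 CPM in striatopallidal neurons. Its log2 fold change was 0.97 ± 0.46 (SE), between 0.90 and 1.04 without any 1 library, with an edgeR unadjusted p of 0.0722 and an adjusted p of 0.779. Ndufc2 and Ndufa11, membrane arm subunits, rested on a single library. Ndufc2 stood at 132 and 37.6 CPM in striatomesencephalic neurons, against 41.4, 21.7 and 30.8 CPM in striatopallidal neurons, and its log2 fold change of 1.39 ± 0.66 (SE) was 0.25 without striatomesencephalic replicate 1. Ndufa11 stood at 226 and 31.4 CPM in striatomesencephalic neurons, against 53.3, 37.1 and 22.4 CPM in striatopallidal neurons, and its log2 fold change of 1.68 ± 0.83 (SE) was -0.32 without that library.

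The nuclear complex I members with the highest mean CPM lay near a log2 fold change of 0. Ndufa4, now regarded as a complex IV subunit, stood at 367 and 337 CPM in striatomesencephalic neurons, against 402, 195 and 413 CPM in striatopallidal neurons. Ndufa10 stood at 261 and 383 CPM in striatomesencephalic neurons, against 284, 253 and 351 CPM in striatopallidal neurons. Their log2 fold changes of 0.04 ± 0.35 and 0.05 ± 0.37 (SE) were -0.13 for Ndufa4 without striatopallidal replicate 2, and -0.27 and -0.08 for Ndufa10 without striatomesencephalic replicate 2 and striatopallidal replicate 1. Ndufs7, an iron-sulphur subunit of the peripheral arm, had 31 and 1187 counts in striatomesencephalic neurons, against 489, 97 and 58 counts in striatopallidal neurons, a range of 35.3-fold over the libraries that lay within the striatomesencephalic group itself. For Ndufs7 the log2 fold change of 1.64 was -2.57 without striatomesencephalic replicate 2.

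Complex II, succinate dehydrogenase, has no mitochondrially encoded part. Sdha, the flavoprotein subunit, stood at 112 and 171 CPM in striatomesencephalic neurons, against 127, 105 and 115 CPM in striatopallidal neurons. Sdhb, the iron-sulphur subunit, stood at 76.3 and 78.2 CPM in striatomesencephalic neurons, against 124, 51.6 and 72.3 CPM in striatopallidal neurons. Sdhc, a membrane anchor, stood at 127 and 129.8 CPM in striatomesencephalic neurons, against 116, 278 and 91.5 CPM in striatopallidal neurons, where striatopallidal replicate 2 was the high value. All of these overlapped between the groups. Their log2 fold changes of 0.22, -0.12 and -0.55 took the other sign in turn without striatomesencephalic replicate 2 (-0.15), striatopallidal replicate 1 (0.15) and striatopallidal replicate 2 (0.40).

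In complex III, Uqcrb, a ubiquinone-binding subunit, stood at 83.1 and 117 CPM in striatomesencephalic neurons, against 82.6, 49.3 and 50.02 CPM in striatopallidal neurons, a log2 fold change of 0.67 ± 0.48 (SE). The groups were apart only by the margin of 83.1 against 82.6 CPM. Uqcrc1, a core protein, stood at 28.1 and 68.7 CPM in striatomesencephalic neurons, against 75.6, 31.4 and 221 CPM in striatopallidal neurons, and its log2 fold change of -1.15 was -0.19 without striatopallidal replicate 3. Uqcrc2, the other core protein, stood at 156 and 79.5 CPM in striatomesencephalic neurons, against 86.8, 53.2 and 116 CPM in striatopallidal neurons, so the core proteins differed in which library was highest. The log2 fold change of Uqcrc2, 0.42, was -0.11 without striatomesencephalic replicate 1. Uqcrh, the hinge protein, was the most abundant nuclear member of the complex, at 346 and 276 CPM in striatomesencephalic neurons, against 265, 255 and 408 CPM in striatopallidal neurons. Its log2 fold change of -0.07 took the other sign with libraries scaled by their totals only, and was 0.07 without striatomesencephalic replicate 2 and 0.09 without striatopallidal replicate 3.

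In complex IV, Cox4i1, the common form of subunit IV whose promoter is shown above, was among the steadiest members. It stood at 644 and 638 CPM in striatomesencephalic neurons, against 758, 559 and 619 CPM in striatopallidal neurons, a log2 fold change of -0.08 ± 0.29 (SE). Cox5b, a zinc-binding nuclear subunit, stood at 41.2 and 58.5 CPM in striatomesencephalic neurons, against 66.1, 194 and 106 CPM in striatopallidal neurons. Its groups did not overlap, and its log2 fold change of -1.49 ± 0.72 (SE; edgeR unadjusted p = 0.0761, adjusted p = 0.779) was -0.71 without striatopallidal replicate 2. Cox6c stood at 74.9 and 148 CPM in striatomesencephalic neurons, against 78.9, 55.5 and 66.3 CPM in striatopallidal neurons, and its log2 fold change of 0.68 was 0.08 without striatomesencephalic replicate 2. Of the 2 genes named Cox6b1, ENSRNOG00000024309 stood at 18.5 and 18.5 CPM in striatomesencephalic neurons, against 26.3, 55.2 and 19.3 CPM in striatopallidal neurons, and ENSRNOG00000034161 stayed between 2.02 and 5.04 CPM in every library. Reads may be split between such copies, so both levels are uncertain. Cox8a had 180 and 1663 counts in striatomesencephalic neurons, against 587, 513 and 439 counts in striatopallidal neurons, and its log2 fold change of 0.85 was -1.42 without striatomesencephalic replicate 2.

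In complex V, Atp5c1, the gamma subunit that turns within the enzyme's head and whose promoter carries the NRF1 match shown above, stood at 248 and 215 CPM in striatomesencephalic neurons, against 358, 493 and 251 CPM in striatopallidal neurons. The groups were apart by 248 against 251 CPM, with a log2 fold change of -0.82 ± 0.50 (SE) that was -0.30 without striatopallidal replicate 2. Atp5b, the catalytic beta subunit, stood at 334 and 438 CPM in striatomesencephalic neurons, against 497, 289 and 411 CPM in striatopallidal neurons, a log2 fold change of -0.09 that was 0.11 without striatomesencephalic replicate 1. Atp5d, the delta subunit, had 224 and 121 counts in striatomesencephalic neurons, against 356, 155 and 796 counts in striatopallidal neurons, with a log2 fold change of -1.23 that was -0.45 without striatopallidal replicate 3.

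Atp5g1, Atp5g2 and Atp5g3 encode the same mature c subunit of the rotor ring behind different import signals. Atp5g3 stood at 34.3 and 37.3 CPM in striatomesencephalic neurons, against 78.3, 53.2 and 60.2 CPM in striatopallidal neurons. Its groups did not overlap, and its log2 fold change of -0.90 ± 0.52 (SE; edgeR adjusted p = 0.799) stayed between -0.99 and -0.82 without any 1 library. Of the counts of the 3 genes, Atp5g3 took 28.5% and 32.8% in striatomesencephalic neurons, against 42.3%, 49.3% and 31.7% in striatopallidal neurons, which overlapped. Atp5g2 stood at 52.6 and 63.0 CPM in striatomesencephalic neurons, against 74.9, 38.1 and 102 CPM in striatopallidal neurons, and these overlapped. Atp5g1 stood at 33.4 and 13.4 CPM in striatomesencephalic neurons, against 31.8, 16.6 and 27.5 CPM in striatopallidal neurons, and its log2 fold change of -0.15 was 0.35 without striatomesencephalic replicate 2.

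Assembly and accessory factors held the extreme values among the nuclear members, at log2 fold changes of 2.24 and -1.81. Atp5s, which encodes a small coupling factor of the ATP synthase, had 616 and 246 counts in striatomesencephalic neurons, against 146, 99 and 121 counts in striatopallidal neurons. The groups did not overlap, and its log2 fold change of 1.90 ± 0.82 (SE) had the smallest p of all 97 members (edgeR unadjusted p = 0.0521, adjusted p = 0.779), while it was 1.04 without striatomesencephalic replicate 1. Ndufaf6, a complex I assembly factor, had 140 and 105 counts in striatomesencephalic neurons, against 320, 525 and 445 counts in striatopallidal neurons. Its groups did not overlap, and its log2 fold change of -1.81 ± 0.83 (SE; edgeR unadjusted p = 0.0652, adjusted p = 0.779) lay between -2.07 and -1.48 without any 1 library. Atp5s and Ndufaf6 were the members with an unadjusted p under 0.05 in DESeq2, where their adjusted p-values were 0.233 and 0.230.

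In other factors single libraries carried the fold change. Ndufaf3, a complex I assembly factor, had 210 and 3955 counts in striatomesencephalic neurons, against 286, 50 and 1057 counts in striatopallidal neurons, and its log2 fold change of 2.24 was -0.99 without striatomesencephalic replicate 2. Cox16 had 439 and 2059 counts in striatomesencephalic neurons, against 794, 121 and 524 counts in striatopallidal neurons, and its log2 fold change of 1.51 was 0.08 without that library. Cox18, which helps insert a complex IV subunit into the membrane, had 255 and 896 counts in striatomesencephalic neurons, against 2582, 580 and 178 counts in striatopallidal neurons. The log2 fold change of Cox18, -0.81, was 0.42 without striatopallidal replicate 1. Atp5sl had 384 and 700 counts in striatomesencephalic neurons, against 380, 2170 and 321 counts in striatopallidal neurons, with a log2 fold change of -0.96 that was 0.80 without striatopallidal replicate 2. Ndufaf7, a methyltransferase needed for complex I assembly, had 1391 and 1459 counts in striatomesencephalic neurons, against 4458, 298 and 2956 counts in striatopallidal neurons, which lay on both sides. Sdhaf1, a complex II assembly factor, had 691 and 1861 counts in striatomesencephalic neurons, against 1198, 3055 and 1189 counts in striatopallidal neurons, and its log2 fold change of -0.58 was 0.25 without striatopallidal replicate 2. Cox7a2l, a factor of respiratory supercomplexes, was steadier, at 41.8 and 50.2 CPM in striatomesencephalic neurons, against 50.8, 61.7 and 56.8 CPM in striatopallidal neurons.

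**Figure D4:**
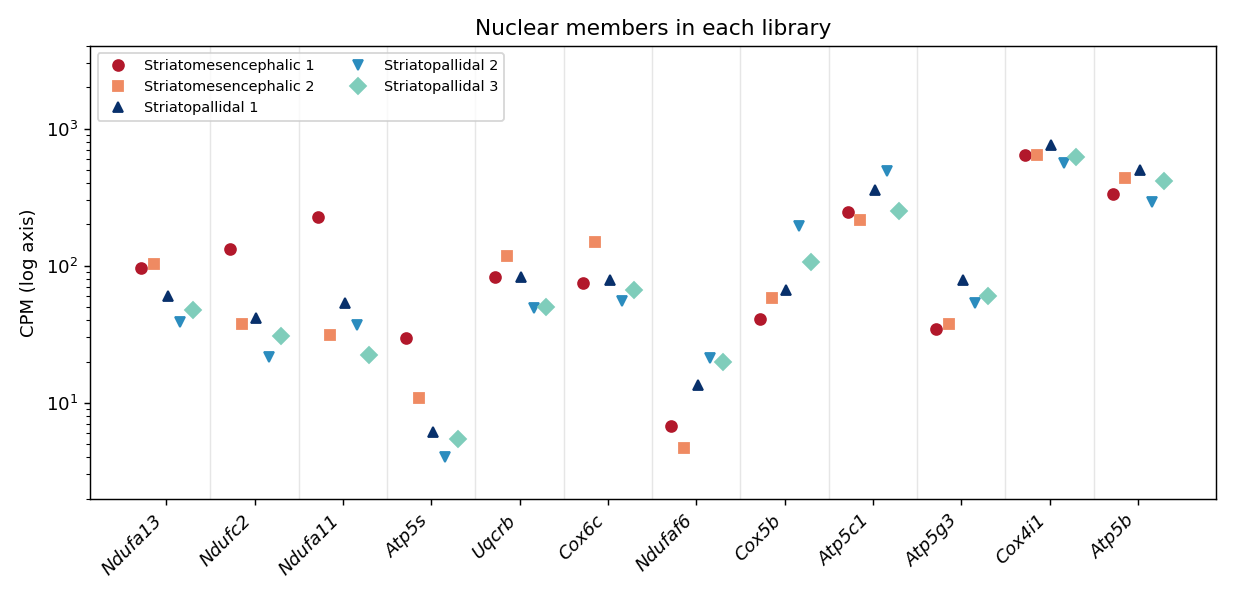
CPM (log axis) of 12 nuclear members named in the text in each library, striatomesencephalic libraries left of striatopallidal ones. Ndufa13 and Atp5s are higher and Cox5b, Atp5g3 and Ndufaf6 lower in both striatomesencephalic libraries, Ndufa11 and Ndufc2 are high in striatomesencephalic replicate 1 alone, and Cox4i1 and Atp5b overlap.

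Spread over the 5 libraries differed by class. The highest library exceeded the lowest by a median of 2.51-fold for mitochondrially encoded members, 2.68-fold for nuclear subunits and 5.33-fold for assembly or accessory factors, against 3.75-fold for the 8674 genes tested with a mean of at least 10 CPM. A range over 5-fold was found in 0 of 13 mitochondrially encoded members, 13 of 64 nuclear subunits (20.3%) and 10 of 20 factors, against 38.3% of those genes. The factors also had lower levels, with a median of 33.8 CPM, against 69.2 CPM for the nuclear subunits and 215 CPM for the mitochondrially encoded members. The part of level in their wider range was not tested. The narrowest range belonged to Mt-co1 (1.27-fold) and the widest to Cox19 (117-fold), which had 562 and 745 counts in striatomesencephalic neurons, against 299, 7 and 358 counts in striatopallidal neurons. In plain CPM, striatopallidal replicate 2 was the lowest library for 47 of the 97 members, and striatopallidal replicate 1 the highest for 39. The place of striatopallidal replicate 2 depended on the scaling, as its TMM factor was 0.774, against 1.02 to 1.14 in the other libraries. Summed over all members, it was the lowest library in plain CPM, at 11800, and the highest when scaled by TMM, at 15262.

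**Figure D5:**
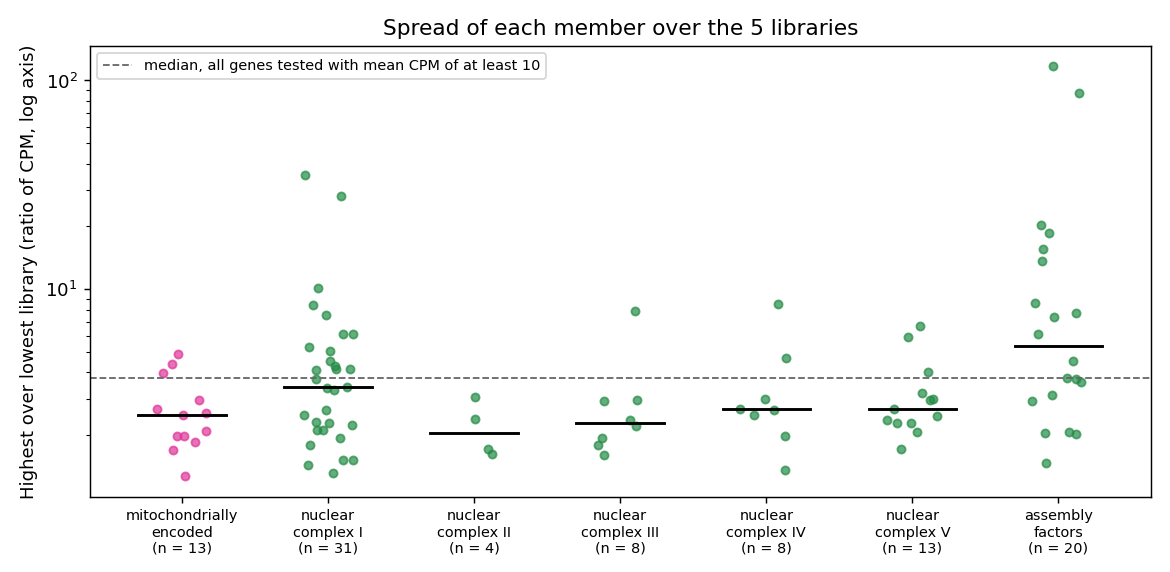
Ratio of the highest to the lowest library in CPM (log axis) for each member, by class, with the class median as a bar. Assembly or accessory factors have the widest median range (5.33-fold), mitochondrially encoded members and nuclear subunits lie lower, and the dashed line marks the median of all genes tested with a mean of at least 10 CPM (3.75-fold).

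Members were also grouped by promoter motif. For the 16 with an NRF1 match the median log2 fold change was -0.42, and 4 were above and 12 below 0. For the 23 with a GABP match it was -0.07, and 10 were above and 13 below 0. For the 35 with neither motif and a single gene per symbol it was -0.08, and 16 were above and 19 below 0. None of the members in these sets passed the test.

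Other genes of mitochondrial energy supply were read from lists, in which no gene passed edgeR's test in either direction. Of 32 genes of electron carriers and the citrate cycle, 19 were higher and 13 lower in striatomesencephalic libraries, with a median log2 fold change of 0.10. Without overlap of the groups, 7 of the 32 were higher in striatomesencephalic libraries and 0 lower. Over all genes tested these shares were 11.2% and 9.91%. Gpd2, the mitochondrial glycerol phosphate dehydrogenase that feeds electrons to ubiquinone, stood at 149 and 196 CPM in striatomesencephalic neurons, against 89.4, 37.7 and 78.5 CPM in striatopallidal neurons, a log2 fold change of 1.32 ± 0.45 (SE; edgeR unadjusted p = 0.0220, adjusted p = 0.779). Coq6, an enzyme of ubiquinone synthesis, was called by DESeq2 (adjusted p = 0.0434) and rested on 2903 counts in striatomesencephalic replicate 1, with 209 in the other striatomesencephalic library, against 206, 20 and 124 counts in striatopallidal neurons.

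Of 30 genes for upkeep and expression of mitochondrial DNA, 14 were higher and 16 lower, with a median of -0.37. Mtpap, the poly(A) polymerase of mitochondrial messengers, stood at 16.9 and 12.8 CPM in striatomesencephalic neurons, against 31.8, 87.4 and 32.2 CPM in striatopallidal neurons (log2 fold change -1.99 ± 0.86 SE; edgeR unadjusted p = 0.0539, adjusted p = 0.779). Tefm, the mitochondrial transcription elongation factor, had 44 and 18 counts in striatomesencephalic neurons, against 140, 580 and 60 counts in striatopallidal neurons. Of 16 biogenesis regulators, 8 were higher and 8 lower, with a median of -0.04. Esrra, a nuclear receptor that acts at respiratory genes, stood at 8.83 and 13.1 CPM in striatomesencephalic neurons, against 33.1, 56.9 and 42.5 CPM in striatopallidal neurons, a log2 fold change of -2.15 ± 0.74 (SE; edgeR unadjusted p = 0.0228, adjusted p = 0.779; DESeq2 adjusted p = 0.0855). Its groups did not overlap.

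The remaining lists lay near 0. Medians were 0.26 for 24 assembly factors outside the members, -0.02 for 16 glycolysis genes, -0.15 for 23 carriers and import genes and 0.05 for 13 genes of fission, fusion and transport. In these lists Oxa1l, an insertase of the inner membrane, rested on 2637 counts in striatomesencephalic replicate 1, with 181 in the other striatomesencephalic library, against 252, 60 and 227 counts in striatopallidal neurons. Chchd4, which imports small proteins of the intermembrane space, had 182 and 58 counts in striatomesencephalic neurons, against 293, 1897 and 378 counts in striatopallidal neurons. Kif5c, a kinesin heavy chain that carries mitochondria along axons, stood at 242 and 399 CPM in striatomesencephalic neurons, against 679.5, 613 and 531 CPM in striatopallidal neurons, and did not pass (edgeR unadjusted p = 0.0373, adjusted p = 0.779).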

How the data were processed

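The authors deposited read counts per Ensembl gene for each library (32285 genes), which entered all tests. Per the labels' protocols, RNA was taken up in TRIzol from the captured cells, and its polyadenylated part was copied with a single-cell kit before Illumina libraries were made. Amplification from little input can add spread between libraries. Per the submitters' processing notes, the tools were limma, edgeR, HTSeq and TopHat2, with build Rnor_6.0, and neither their roles and versions nor the counting strand are stated. The authors' deposited comparison holds log2 fold changes and p-values for 12054 genes, and supplied the symbols.

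The counts went into edgeR 4.0.16 under R 4.3.3 (filterByExpr by group, TMM, glmQLFit and glmQLFTest, Benjamini-Hochberg over 13811 genes, threshold 0.05). On simulated counts it recovered nearly all changed genes where replicates varied little. It called none of them, at either fold simulated, when every gene was given the common spread estimated over all genes of these libraries. Genes with a smaller spread of their own, as some members had, were not simulated at it. A gene without a call may still differ. Fold changes are log2 of striatomesencephalic minus striatopallidal libraries, and each standard error is the fold change over the root of its F statistic. CPM are plain unless called TMM-scaled. DESeq2 1.42.0 and limma 3.58.1 were alternatives, beside other scalings, no filter, each library left out in turn and a replicate block. Ranges take values under 3 counts as 3 counts. Without molecular identifiers, the floor covers counting error only. No library was a repeat sequencing of another, with chi-square values per degree of freedom from 164 to 585. These values do not tell whether libraries came from separate animals. Promoters are from RefSeq (GRCr8).

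Named were all mitochondrially encoded members and, of nuclear ones, the 3 smallest p-values and 2 highest mean CPM of each complex and of the factors, alternative forms of a subunit, and members whose highest library exceeded 5 times the median of the other 4 at a mean of at least 10 CPM. Of other lists, those called by any tool or among the 2 smallest p-values could be named. Members, lists and tests were chosen with earlier results of these data known.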

Additional observations from a re-analysis of the deposited data

How the results depend on the processing

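Under the alternatives run, no named member passed the adjusted threshold, and the lowest adjusted p of any was 0.230. Of 47 named members, 28 kept their sign under every alternative and 19 did not, while 11 of the 13 mitochondrially encoded ones kept it. The median log2 fold change of the mitochondrially encoded members lay between -0.67 and -0.41 without any 1 library, and was -0.59 without Mt-co1, an alternative chosen after seeing the data. That of the nuclear members lay between -0.15 and 0.016, the highest without striatopallidal replicate 1. The difference of the mitochondrial to nuclear ratio lay between -0.166 and -0.0234, the ends being those without striatomesencephalic replicate 2 and 1. The count of members whose groups did not overlap was 27 to 46 with 1 library left out, where all genes also ran higher, at 31.0% to 50.3%. DESeq2 called 226 genes, none of them members, against 0 for edgeR, and the cause was not tested.

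With library totals only, Mt-co1 was at 0.061 and Uqcrh at 0.0064. The replicate numbers are not shown to pair the libraries, since deviations of same-numbered libraries correlated at -0.0194 and -0.0342. With the replicate block, the mitochondrially encoded median was -0.62, 0 genes were called and 465 had an unadjusted p under 0.05, against 839 without it. Striatopallidal replicate 3 has no library of the same number in the other group, so with the block it adds nothing to the comparison. The block gave 0.24 for Mt-nd5, 0.33 for Ndufaf7, -0.13 for Ndufs7 and 0.11 for Uqcrh.

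Leaving out 1 library at a time gave log2 fold changes that crossed 0 in these members. Mt-nd5 ran -0.51 to 0.18, Mt-co1 ran -0.22 to 0.17, Ndufaf3 ran -0.99 to 3.78. Ndufa10 ran -0.27 to 0.32, Ndufa11 ran -0.32 to 2.49, Ndufa4 ran -0.13 to 0.17. Ndufs7 ran -2.57 to 2.81, Sdhaf1 ran -1.41 to 0.25, Sdha ran -0.15 to 0.51. Sdhb ran -0.25 to 0.15, Sdhc ran -0.89 to 0.40, Uqcrc2 ran -0.11 to 0.82. Uqcrh ran -0.25 to 0.095, Cox18 ran -1.91 to 0.42, Cox8a ran -1.42 to 1.70. Atp5sl ran -1.41 to 0.80, Atp5b ran -0.32 to 0.11, Atp5g1 ran -0.92 to 0.35. The cause was not tested. With 2 libraries against 3 and a biological coefficient of variation of 0.822 over all genes, the number of libraries limits the precision.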
